A study of Mus musculus with 40 samples.

Results

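Promoter chromatin was examined at 10 Sox genes, a set out of 55536 annotated mouse genes that was chosen to set genes active in neural progenitors against genes known mainly from other cells. The members were Sox1 and Sox2 (SoxB1), Sox14 and Sox21 (SoxB2), Sox4 and Sox11 (SoxC), Sox5 and Sox6 (SoxD), and Sox7 and Sox17 (SoxF), and all 10 were found by symbol in the annotation. Both histone marks were read at each promoter, taken as 2000 bp upstream to 1000 bp downstream of every annotated transcript start on mm10. A mark was counted as present where a peak covered at least 1 promoter base, and its extent was the percent of a gene's promoter bases under peaks.

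The samples were cultures of oligodendrocyte precursor cells (OPCs), the dividing glial precursors that give rise to myelinating cells, kept in proliferation medium without differentiation. They came from litters labelled AMGFAP-Cre;K27M, aged 5 to 7 days; the study's methods name the driver line hGFAP-Cre. This driver is active in neural stem and progenitor cells and, in the K27M group, switches on a knocked-in H3.3 carrying the K27M substitution. The control group was littermates labelled Control, whose exact alleles the labels do not spell out. Brainstem, and dorsal telencephalon (cortex in the sample labels, holding cortex, corpus callosum and hippocampus), were pooled by region and genotype, depleted of endothelial cells and microglia, and panned on an antibody to PDGFRa.

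Each of the 20 libraries came from chromatin immunoprecipitation (ChIP) with an antibody to H3K4me3 or H3K27me3. For each mark there were 2 control and 2 K27M brainstem cultures (59 and 61) and 3 control and 3 K27M telencephalon cultures (59, 60 and 61). The control and the K27M culture of the same number and tissue formed a pair, which gave 5 pairs from 3 culture numbers. Both tissues have numbers 59 and 61, and the sample titles do not say whether same-numbered cultures came from the same litters. The tests took the 5 pairs as independent. A culture pooled several animals, so the spread between cultures is not a spread between animals.

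The Sox genes encode transcription factors with a shared DNA-binding HMG box. SoxB1 factors hold cells in a neural progenitor state and SoxB2 factors act mainly as repressors of overlapping targets. SoxC factors work in neuronal and glial precursors, SoxD factors tune the timing of oligodendrocyte development, and SoxF factors are known from endothelium and endoderm. H3K4me3 marks promoters that are active or poised, H3K27me3 is the product of Polycomb repressive complex 2 and marks silenced developmental genes, and promoters with both are called bivalent. H3.3 K27M is known to inhibit that complex.

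The 4 SoxB promoters are shown because the paralogs of each pair differed in H3K27me3: Sox2 and Sox21 carried only H3K4me3, Sox1 carried H3K4me3 with a variable H3K27me3, and Sox14 was covered by H3K27me3. Each sequence is the 300-base RefSeq promoter around the RefSeq start, written 5′ to 3′ along the gene, with CG dinucleotides in capitals.
Sox2 (GRCm38.p6, chr3:34649745-34650044, plus strand): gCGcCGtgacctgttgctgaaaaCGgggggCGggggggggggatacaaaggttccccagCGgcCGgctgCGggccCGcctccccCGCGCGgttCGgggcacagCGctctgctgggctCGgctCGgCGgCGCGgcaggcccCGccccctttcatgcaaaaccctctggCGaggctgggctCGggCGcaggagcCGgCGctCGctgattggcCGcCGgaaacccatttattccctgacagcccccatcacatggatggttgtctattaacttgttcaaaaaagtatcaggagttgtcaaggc
Sox21 (GRCm38.p6, chr14:118236981-118237280, minus strand): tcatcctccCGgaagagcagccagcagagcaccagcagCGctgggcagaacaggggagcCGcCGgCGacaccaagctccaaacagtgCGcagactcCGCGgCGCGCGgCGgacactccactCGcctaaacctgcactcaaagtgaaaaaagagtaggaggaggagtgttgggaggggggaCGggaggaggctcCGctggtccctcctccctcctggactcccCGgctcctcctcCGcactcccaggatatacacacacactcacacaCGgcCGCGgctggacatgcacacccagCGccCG
Sox1 (GRCm38.p6, chr8:12395269-12395568, plus strand): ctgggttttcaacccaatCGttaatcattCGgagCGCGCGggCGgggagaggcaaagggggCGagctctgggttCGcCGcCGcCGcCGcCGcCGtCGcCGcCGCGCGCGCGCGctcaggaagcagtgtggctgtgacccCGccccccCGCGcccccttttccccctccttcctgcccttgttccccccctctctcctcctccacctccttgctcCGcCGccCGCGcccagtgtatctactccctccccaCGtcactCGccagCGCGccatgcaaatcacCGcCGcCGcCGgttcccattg
Sox14 (GRCm38.p6, chr9:99876121-99876420, minus strand): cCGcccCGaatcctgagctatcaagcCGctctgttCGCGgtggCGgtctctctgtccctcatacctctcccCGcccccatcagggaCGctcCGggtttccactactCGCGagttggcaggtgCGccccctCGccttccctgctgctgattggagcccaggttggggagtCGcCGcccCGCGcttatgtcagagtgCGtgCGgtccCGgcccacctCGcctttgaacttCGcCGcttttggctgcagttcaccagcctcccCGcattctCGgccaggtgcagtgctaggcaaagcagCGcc
All 4 lie within the promoter windows used here, and the RefSeq start of Sox2 is 410 bp upstream of the annotated one. Sox1 held 37 CG dinucleotides, Sox2 27, Sox14 26 and Sox21 22, against a median of 7 over 32851 RefSeq promoters of the same length, of which 95% held as many as Sox1 or fewer and 78.5% as many as Sox21 or fewer. By CG count Sox14, which was covered by H3K27me3, lay between Sox2 and Sox21, which carried only H3K4me3. The part of CG content in the marks was not tested. H3K4me3 covered all 300 bases at Sox1 and Sox21 in 10 of 10 libraries and at Sox2 in 9 of 10, whereas H3K27me3 covered all of them at Sox14 in 10 of 10, at Sox1 in 3 of 10 and at Sox2 and Sox21 in none of 10. Over the whole promoter windows, CG dinucleotides per 100 bp ranged from 1.72 at Sox6 and 2.30 at Sox5, the genes with the most transcript starts, to 7.87 at Sox11, and Sox7 and Sox17, both covered by H3K27me3, had 5.30 and 2.92.

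The libraries set limits on these values. H3K4me3 lists held 20961 to 31200 peaks and H3K27me3 lists 4739 to 64808, and in all 5 pairs the K27M culture had the shorter H3K27me3 list. In the telencephalon controls the median peak fold in H3K4me3 was 13.8 and 10.1 in cultures 60 and 61 and 3.57 in culture 59. The peak lists give no read counts, so depth is known only through the number of peaks, and a missing peak is a mark not detected. In a pooled culture, fewer cells carrying a mark and less of the mark per cell cannot be told apart. The 6 OPC markers (Olig1, Olig2, Sox10, Pdgfra, Cspg4 and Gpr17) all had H3K4me3 and no H3K27me3 in all 10 libraries of each mark. The same held for 38.1% of 22028 protein-coding genes, and expression was not read here.

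The members were listed as 7 active in neural progenitors and 3 others with earlier results of these data known. The split between these lists is thus a description and not a test. The lists differed in which mark was found in every library. H3K4me3 was present in 10 of 10 libraries at 7 of 10 members (Sox1, Sox2, Sox4, Sox5, Sox6, Sox11 and Sox21), the 7 neural progenitor genes, against 57.8% of 22028 protein-coding genes. H3K27me3 was present in 10 of 10 libraries at 3 of 10 members (Sox7, Sox14 and Sox17), against 5.77% of protein-coding genes. H3K4me3 in every library with H3K27me3 in none held for 5 of 10 members (Sox2, Sox4, Sox6, Sox11 and Sox21), against 38.1% of protein-coding genes. The 2 remaining members, Sox1 and Sox5, had H3K27me3 in 7 and 6 of 10 libraries.

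**Figure D1:**
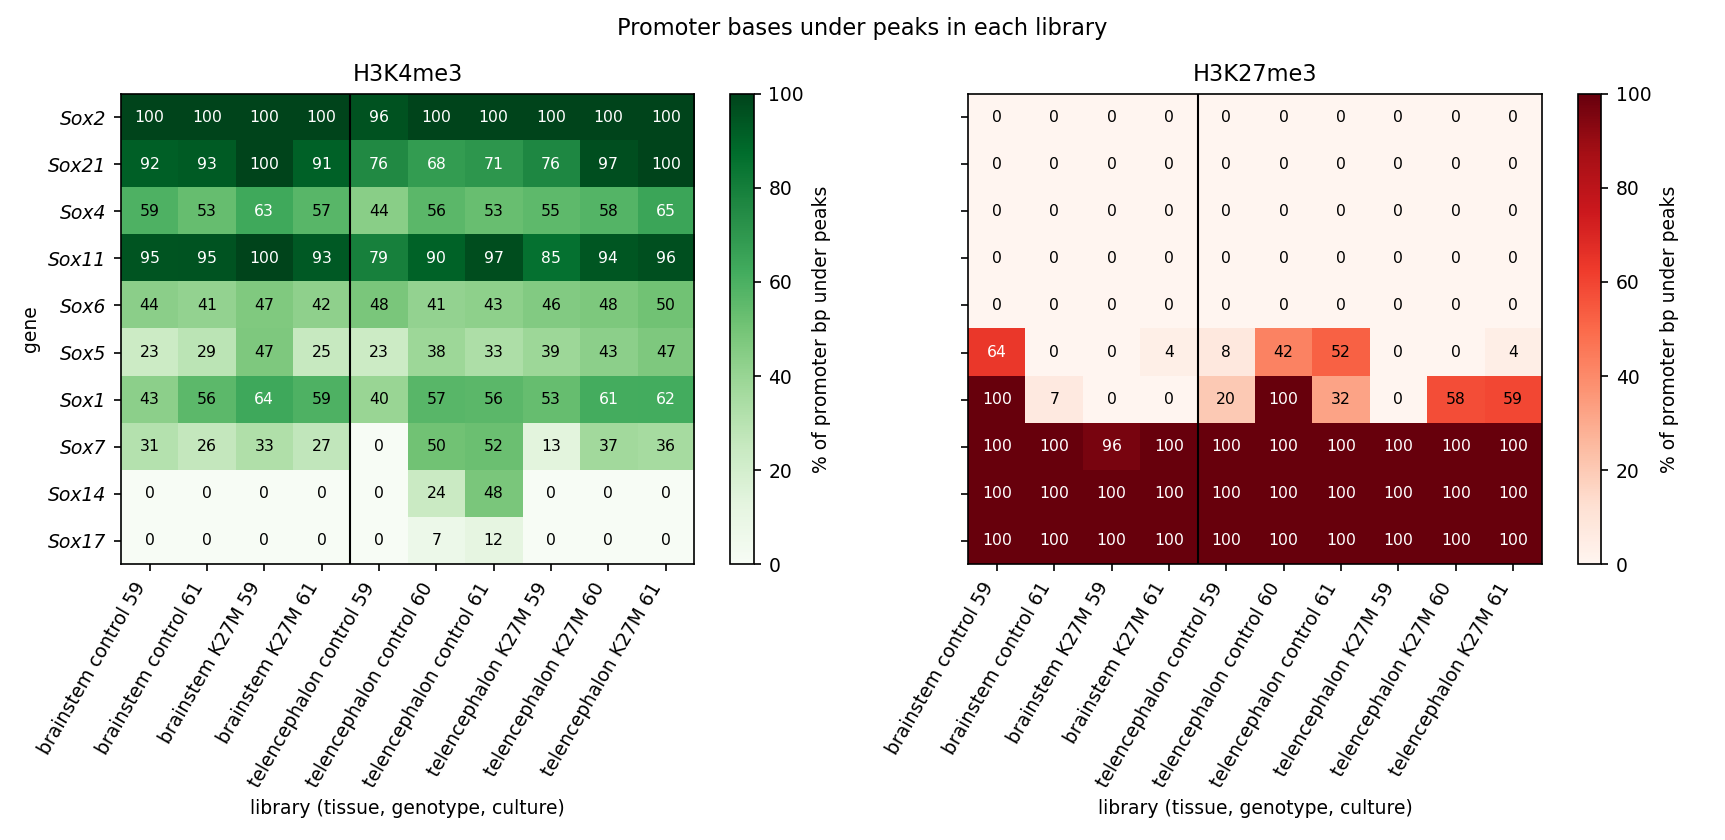
Percent of promoter bases under H3K4me3 (left) and H3K27me3 (right) peaks for the 10 genes (rows) in each of the 10 libraries of the mark (columns, by tissue, genotype and culture; the line parts the tissues). Sox2, Sox21, Sox4, Sox11 and Sox6 have 0 on the right in every library, Sox7, Sox14 and Sox17 lie between 96 and 100 there, and Sox1 and Sox5 vary.

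Sox2 (chr3:34650405-34652461, mm10, plus strand), the SoxB1 factor that maintains neural stem and precursor cells, had H3K4me3 peaks that were long in every library. Its promoter was 95.6% covered in telencephalon control 59 and 100% covered in the other 9 libraries. The longest H3K4me3 peak at its promoter measured 18.7 and 21.2 kb in brainstem controls 59 and 61, and 31.7 and 10.7 kb in the matching K27M cultures. In telencephalon controls 59, 60 and 61 it measured 9.78, 18.9 and 20.0 kb, and in K27M 18.4, 22.8 and 32 kb. The groups overlapped, and the mean rose from 17.7 to 23.1 kb, a difference of 5.43 kb (SD 9.59, 5 pairs) with 4 pairs longer, which did not exceed the spread between pairs (exact sign-flip permutation test, two-sided, p = 0.25, with 0.0625 the smallest p that 5 pairs allow). Per library its peak was as long as or longer than those of at least 99.8% of the genes with an H3K4me3 promoter peak, whose median length was 1641.5 to 2466 bp. The nearest H3K27me3 peak lay 145 to 694 kb from the Sox2 start in controls and 737 to 774 kb in K27M cultures.

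Sox21 (chr14:118233232-118237030, minus strand), the SoxB2 paralog that counteracts SoxB1 factors, carried H3K4me3 alone, with H3K27me3 close by in controls. H3K4me3 covered 91.5% and 92.6% of its promoter in brainstem controls 59 and 61. It covered 75.7%, 68.1% and 70.7% in telencephalon controls 59, 60 and 61. All 3 telencephalon controls were thus below both brainstem controls, with a mean difference of -20.6 points (92.1 ± 0.801 against 71.5 ± 3.87, SD, n = 2 and 3; exact permutation test, two-sided, p = 0.1, the smallest that 10 splits allow). Sox21 was 1 of 10 members below in that comparison, where 15.8% of 19693 genes were; 0 of 10 were above (0.97% of genes). With the promoter taken as 1000 bp on either side of the start the tissues overlapped. In K27M cultures they overlapped too, at 100% and 91.0% in brainstem and 76.2%, 96.6% and 100% in telencephalon. Between genotypes, coverage was higher in K27M in 4 of 5 pairs, by 13.0 points in the mean (SD 15.0; exact sign-flip permutation p = 0.188).

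The nearest H3K27me3 peak to Sox21 was 8.76 and 8.52 kb from the start in brainstem controls 59 and 61, and 42.3, 8.23 and 8.38 kb in telencephalon controls 59, 60 and 61. In the K27M cultures it was 233 and 232 kb away in brainstem and 232, 201 and 232 kb in telencephalon. No K27M value overlapped a control value. The peaks of 4 of 5 controls lay downstream of the Sox21 start, and none of the 5 K27M cultures had one within 40 kb. Of the 5 members without promoter H3K27me3, Sox2, Sox4, Sox11 and Sox21 had the nearest H3K27me3 peak farther away in K27M in 5 of 5 pairs and Sox6 in 4 of 5. The share over all 39698 genes without promoter H3K27me3 was 74.2%, and the K27M lists held fewer H3K27me3 peaks in every pair.

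**Figure D2:**
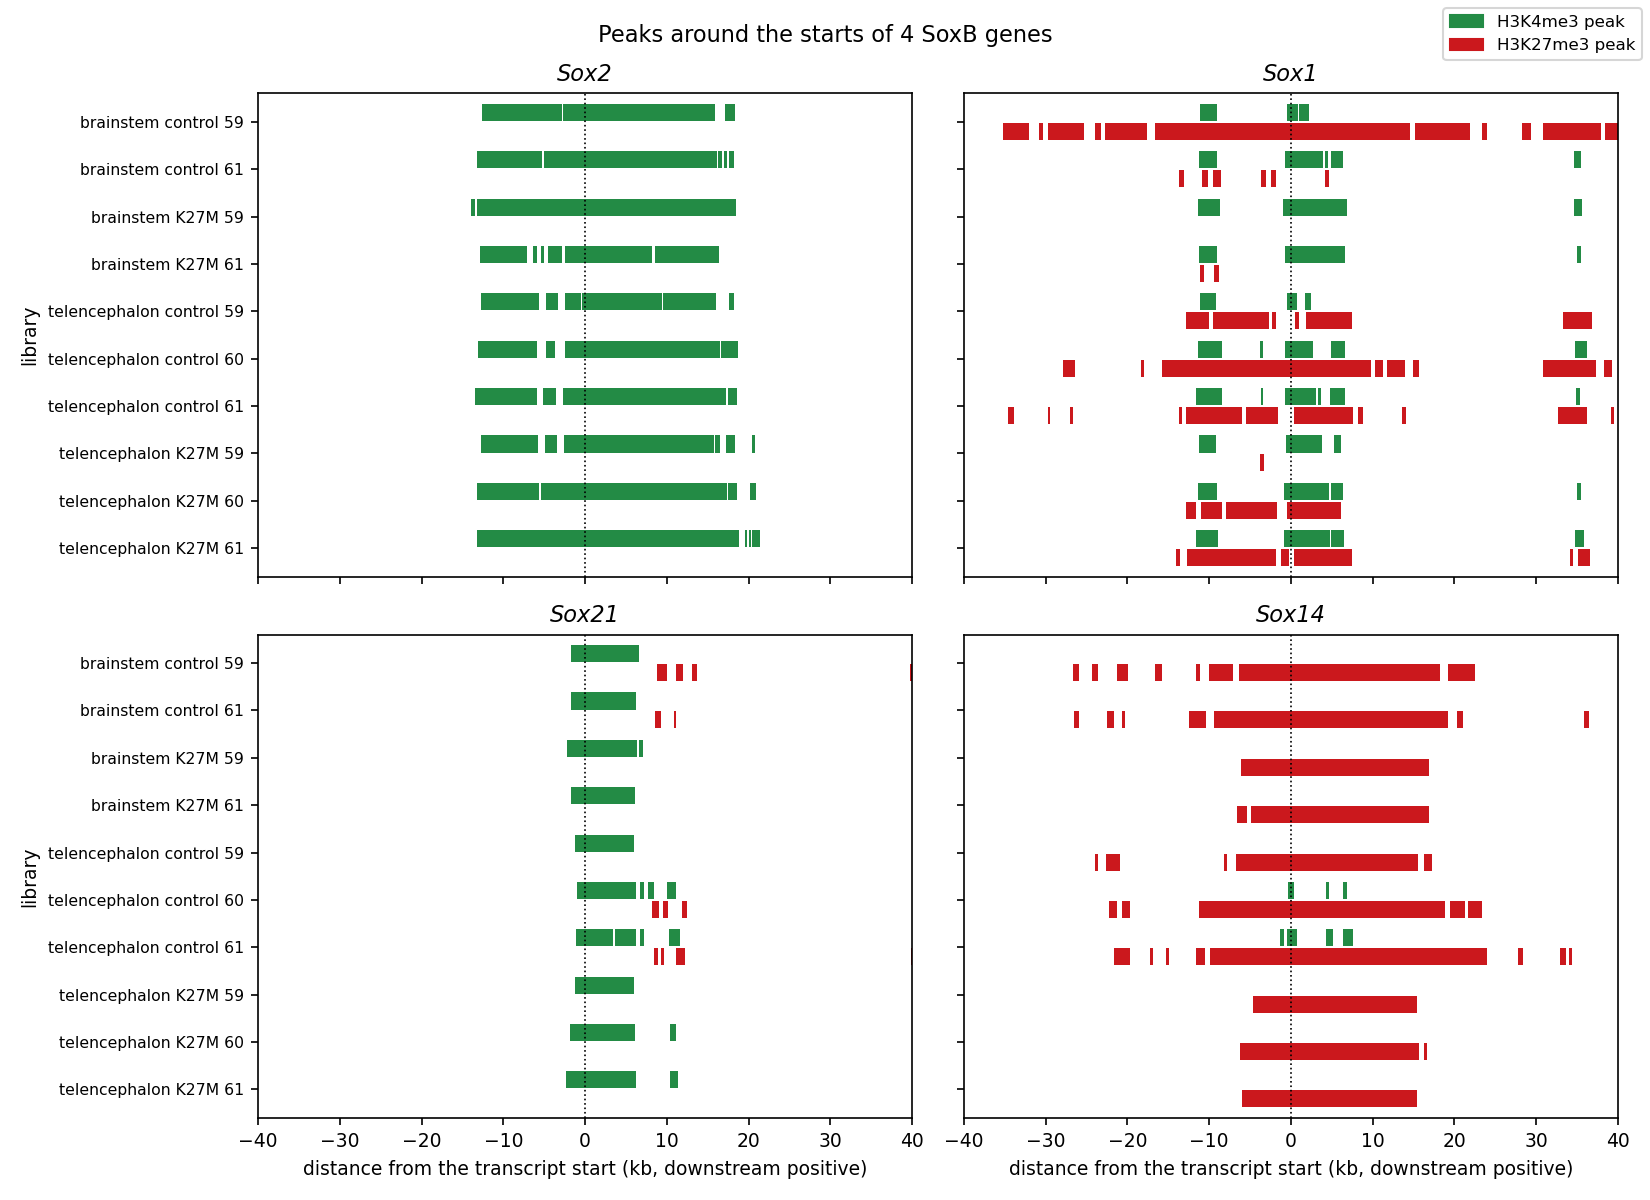
H3K4me3 (green) and H3K27me3 (red) peaks within 40 kb of the annotated start of Sox2, Sox1, Sox21 and Sox14 (the most upstream start for Sox14), one row per library, with distance in kb along the gene. Sox2 has long H3K4me3 peaks only, Sox14 has an H3K27me3 domain over the start in all 10 libraries, Sox1 has both marks, and H3K27me3 stands beside Sox21 in 4 controls and no K27M culture.

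Sox4 (chr13:28948919-28953713, minus strand) and Sox11 (chr12:27334264-27342574, minus strand), the SoxC factors of migrating precursors and young neurons, carried H3K4me3 alone in every library. H3K4me3 covered 43.9% to 64.6% of the Sox4 promoter and 79.2% to 100% of the Sox11 promoter. At Sox4 it covered 59% and 53.2% in brainstem controls 59 and 61, and 43.9%, 56.0% and 52.8% in telencephalon controls 59, 60 and 61. In the matching K27M cultures it covered 63.1% and 57.0%, then 55.4%, 57.7% and 64.6%. The K27M value was the higher one in 5 of 5 pairs, although the groups overlapped. The mean difference was 6.58 points (SD 4.74, exact sign-flip permutation p = 0.0625, adjusted over genes with H3K4me3 in at least 1 library 0.869). The highest H3K4me3 fold at Sox4 was higher in K27M in 3 pairs and lower in 2. These 2 were telencephalon 60 (125 to 43.1) and 61 (86.6 to 49.7). At Sox11 H3K4me3 coverage was higher in 3 of 5 pairs (mean difference 2.54 points, SD 3.69, exact sign-flip permutation p = 0.25). The longest H3K4me3 peak measured 5.35 to 6.61 kb at Sox4 and 5.69 to 8.27 kb at Sox11.

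Sox6 (chr7:115470872-116038796, minus strand), a SoxD factor expressed in OPCs, has 13 annotated starts in 8 separate promoter windows, so 1 value per gene averages over them. H3K27me3 was found in none of the 8. H3K4me3 covered 84.7% to 100% of the most upstream window and 87.2% to 100% of the next in 10 of 10 libraries, and 51.8% to 100% of window 6, whereas windows 4, 5 and 8 had no peak in any library. Its longest peak was 16.7, 10.1, 11.3, 15.1 and 12.2 kb in controls (brainstem 59 and 61, then telencephalon 59, 60 and 61). In K27M it was 18.2, 15.8, 18.0, 17.6 and 18.2 kb in the same order. It was longer in K27M in 5 of 5 pairs, by 4.46 kb in the mean (SD 2.33; exact sign-flip permutation p = 0.0625). Sox6 windows also overlap promoter windows of 1110004F10Rik, Gm45025 and Sox6os, and peaks in the overlap cannot be assigned to 1 of the genes. The same holds for Gm25239 at Sox1, Gm27611 at Sox2, Gm4675 at Sox21 and Gm37587 at Sox17.

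**Figure D3:**
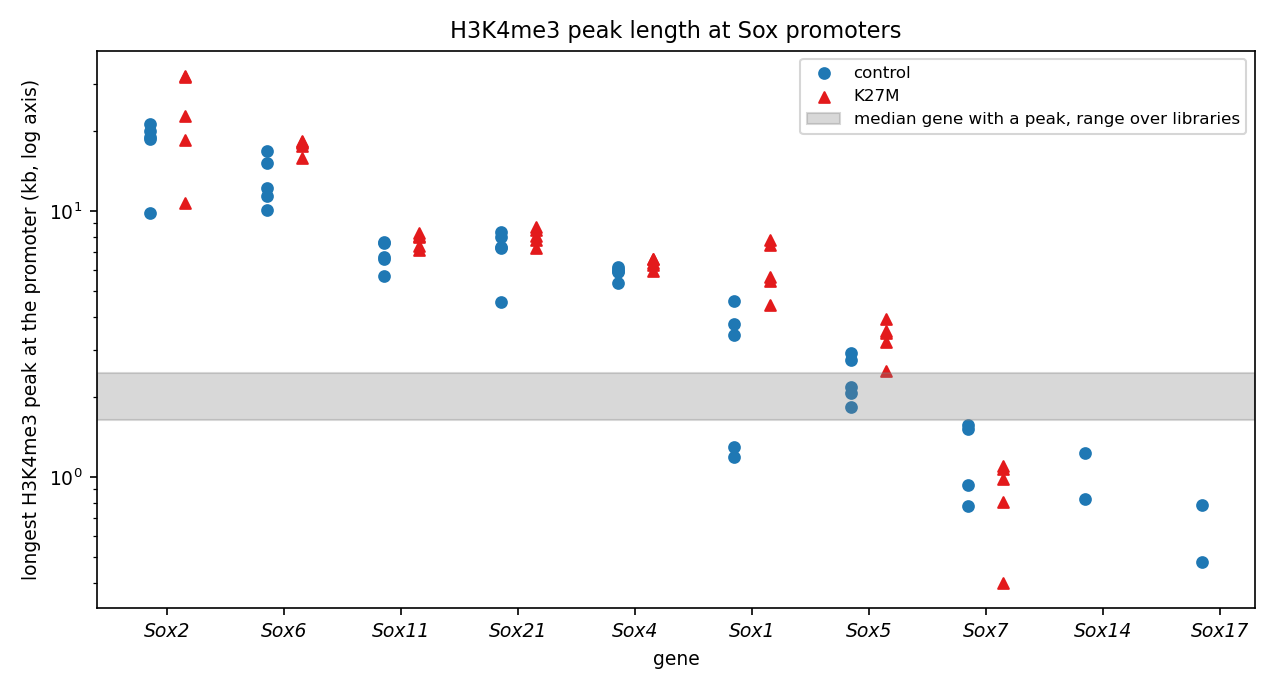
Longest H3K4me3 peak at the promoter in kb (log axis) for each gene; each point is a library with a peak (circles control, triangles K27M), and the grey band is the range over libraries of the median length for all genes with a peak. Sox2 and Sox6 reach 32 and 18.2 kb, Sox1 is higher in K27M, and Sox7, Sox14 and Sox17 lie below the band wherever they have a peak.

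Sox1 (chr8:12395295-12400126, plus strand), the SoxB1 factor of early neural progenitors, had H3K4me3 in every library and H3K27me3 coverage that ranged from 0% to 100%. H3K27me3 covered 100% of the promoter in brainstem control 59 and 6.67% in control 61. It was not detected there in brainstem K27M cultures 59 and 61. In telencephalon controls 59, 60 and 61 it covered 20.2%, 100% and 32.3%, and in the K27M cultures 0%, 57.7% and 59.2%. Telencephalon culture 61 thus went up while the other 4 pairs went down, and the groups overlapped. The mean fell from 51.8% to 23.4%, a difference of -28.5 points (SD 47.2, 5 pairs), less than the spread between pairs (exact sign-flip permutation p = 0.312, adjusted 0.72). In 4 of the 7 libraries with H3K27me3 at this promoter no H3K27me3 peak lay over the start itself, and the nearest one lay 184 to 1801 bp from it.

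H3K4me3 coverage at Sox1 was the higher in K27M in 5 of 5 pairs. H3K4me3 covered 43.2% and 55.5% in brainstem controls and 63.6% and 59% in K27M cultures 59 and 61. It covered 39.7%, 56.7% and 55.9% in telencephalon controls and 53.4%, 61.5% and 61.8% in K27M cultures 59, 60 and 61. The mean difference was 9.66 points (SD 7.20, exact sign-flip permutation p = 0.0625, adjusted 0.869). The highest H3K4me3 fold was higher in K27M in 3 pairs and lower in 2. These 2 were telencephalon 60 (80.8 to 35.7) and 61 (58.0 to 30.7). The longest H3K4me3 peak was 1.3, 4.57, 1.19, 3.41 and 3.76 kb in controls, and 7.75, 7.42, 4.43, 5.45 and 5.64 kb in K27M, in the order of the pairs. All but 1 of the K27M values exceeded every control value, the exception being telencephalon K27M 59, which lay under brainstem control 61. The mean grew from 2.84 to 6.14 kb, by 3.29 kb (SD 1.85; exact sign-flip permutation p = 0.0625).

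Counting members, H3K4me3 coverage was higher in K27M in 5 of 5 pairs at 2 of 10 (Sox1 and Sox4) and lower in 5 of 5 at 0 of 10, against 5.23% and 0.65% of 20007 genes. The longest H3K4me3 peak was longer in 5 of 5 pairs at 2 of the 7 members with a peak in every library (Sox1 and Sox6), against 7.2% of 15934 such genes. By limma on the log2 of the highest fold enrichment, each library centred on its median, 0 of those 7 members passed an adjusted p of 0.05 in either direction and 0 passed at an unadjusted 0.05, and 4 of 15934 genes (0.0251%) were lower and 0 higher. The log2 differences of the 7 ran from -0.31 (SE 0.18) at Sox6 to 0.27 (SE 0.19) at Sox1.

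Sox5 (chr6:143828425-144781977, minus strand), the other SoxD gene, has 12 starts in 4 windows, of which the fourth had no peak of either mark. H3K27me3 covered 63.9% and 0% of its promoter bases in brainstem controls 59 and 61, and 0% and 3.81% in the K27M cultures. It covered 7.71%, 42.4% and 52.1% in telencephalon controls 59, 60 and 61, and 0%, 0% and 4.03% in K27M. Coverage was lower in K27M in 4 pairs and higher in 1, brainstem 61, with a mean difference of -31.6 points (SD 28.5; exact sign-flip permutation p = 0.125, adjusted 0.497). H3K4me3 was present in the first and second windows in 10 of 10 libraries, and over all windows its mean coverage was 29.2% in controls and 40.1% in K27M (SD of the difference 10.7; 4 of 5 pairs higher; exact sign-flip permutation p = 0.125). No member with H3K27me3 was lower in 5 of 5 pairs and none was higher, where 10.5% and 0.134% of 14153 genes were.

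The third Sox5 window, chr6:144203058-144206427 on mm10, differed from the others in H3K4me3 and was singled out after its values were seen. H3K4me3 was found there in 0 of 5 controls and in 4 of 5 K27M cultures. It covered 43.8% and 0% in brainstem K27M 59 and 61 and 40%, 31.5% and 48.1% in telencephalon K27M 59, 60 and 61. The mean difference was 32.7 points (SD 19.3; 4 pairs higher and 1 at 0 in both; exact sign-flip permutation p = 0.125). These were separate peaks of low enrichment, with a highest fold of 3.72, 3.93, 5.47 and 5.95, and in each of those 4 cultures a peak lay over at least 1 of the 2 transcript starts in the window. H3K27me3 covered 100%, 0%, 28.7%, 100% and 100% of the window in controls, and 0%, 6.44%, 0%, 0% and 15.0% in K27M, in the order of the pairs. The absence of H3K4me3 in all controls with its presence in 4 or 5 K27M cultures was found at 12 of 22990 promoter windows with H3K4me3 in any library (0.0522%). That pattern was set from the values of this window, so the share describes it and is not a test.

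**Figure D4:**
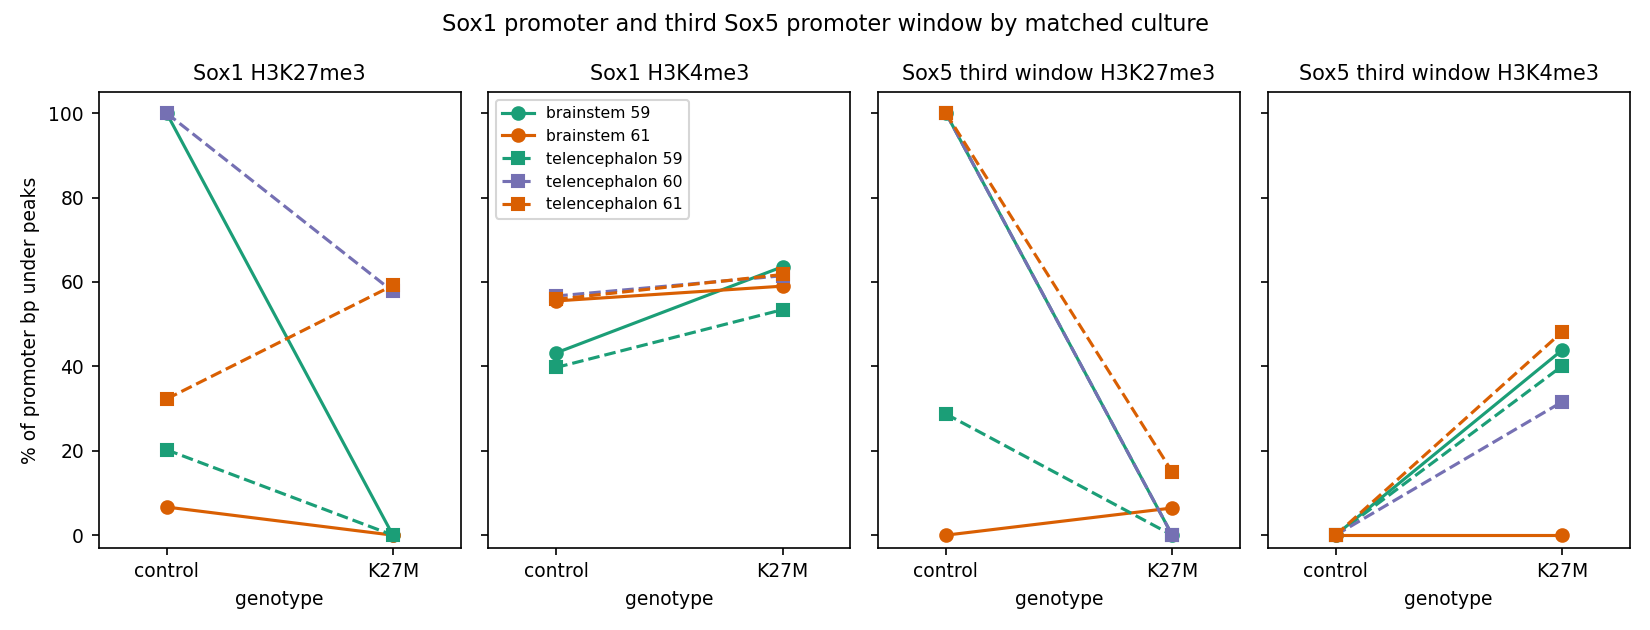
Percent of promoter bases under peaks in control and K27M, joined by matched culture (circles and full lines brainstem, squares and dashed lines telencephalon; colours are culture numbers), for Sox1 and for the third Sox5 window. Sox1 H3K4me3 goes up in all 5 pairs, and H3K4me3 at the Sox5 window is 0 in all 5 controls and above 30 in 4 K27M cultures.

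Sox14 (chr9:99874106-99876170, minus strand), the SoxB2 gene of postmitotic interneurons, was covered by H3K27me3 over 100% of its promoter in all 10 libraries. H3K4me3 was found in 2, telencephalon controls 60 and 61, over 23.5% and 48.1% of the promoter with folds of 6.18 and 8.26, and without these 2 libraries it was at 0 of 8. The highest H3K27me3 fold was 9.71 and 8.90 in brainstem controls 59 and 61, and 24.8 and 31.1 in the K27M cultures. In telencephalon controls 59, 60 and 61 it was 4.37, 14.5 and 8.59, and in K27M 9.37, 24.5 and 27.4. It was higher in K27M in 5 of 5 pairs, with means of 9.20 and 23.4 and a difference of 14.2 (SD 6.84; exact sign-flip permutation p = 0.0625), and telencephalon K27M 59 alone lay within the range of the controls. Among genes with an H3K27me3 promoter peak in its library, the Sox14 fold was at percentile 99.1, 96.5, 90.2, 96.4 and 96.9 in controls. In K27M it was at 95.6, 97.8, 90.4, 95.7 and 93.6, in the order of the pairs, so the rank did not rise in every pair. The longest H3K27me3 peak moved in the direction opposite to the fold. It was 24.7, 28.7, 22.3, 30.1 and 33.9 kb in controls and 23.0, 21.7, 20.1, 22.0 and 21.4 kb in K27M, shorter in 5 of 5 pairs, and the mean dropped by 6.29 kb (SD 4.48; exact sign-flip permutation p = 0.0625).

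Sox17 (chr1:4490931-4497354, minus strand), the SoxF regulator of endoderm and endothelium, followed Sox14. H3K27me3 covered 100% of its promoter in all 10 libraries, and H3K4me3 was again found only in telencephalon controls 60 and 61, over 7.14% and 11.6% of its bases. The highest H3K27me3 fold was 8.5 and 7.36 in brainstem controls and 18.3 and 26.4 in K27M cultures 59 and 61. In telencephalon it was 5.54, 12.8 and 9.55 in controls and 8.96, 20.4 and 23.0 in K27M cultures 59, 60 and 61. All 5 pairs rose, by 10.7 in the mean (SD 5.94; exact sign-flip permutation p = 0.0625), and telencephalon K27M 59 was again within the control range. The percentile of the Sox17 fold within its library was 97.1, 92.3, 97.4, 94.6 and 98.0 in controls. In K27M it was 86.8, 92.4, 88.7, 92.0 and 89.4, in the order of the pairs. Its longest H3K27me3 peak was 22.1 to 29.9 kb in controls and 18.8 to 22.7 kb in K27M, shorter in 5 of 5 pairs, and the mean dropped by 6.39 kb (SD 1.76).

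Sox7 (chr14:63943673-63950732, plus strand), the other SoxF gene, kept both marks. H3K27me3 covered 96.1% of its promoter in brainstem K27M 59 and 100% in the other 9 libraries. H3K4me3 was found in 9 of 10 and not in telencephalon control 59. It covered 31.2% and 26.0% in brainstem controls, 50.5% and 52.1% in telencephalon controls 60 and 61, and 13.4% to 36.8% in K27M cultures, with no peak over 1.56 kb. The highest H3K27me3 fold was 6.18, 4.67, 2.90, 9.89 and 6.20 in controls and 5.6, 7.47, 4.02, 9.52 and 12.8 in K27M, higher in 3 pairs and lower in 2. The difference of 1.91 (SD 2.94) was less than the spread between pairs (exact sign-flip permutation p = 0.25). Its longest H3K27me3 peak was 10.3, 6.65, 6.39, 12.3 and 14.9 kb in controls and 3.91, 5.19, 4.90, 6.73 and 6.59 kb in K27M, shorter in 5 of 5 pairs, and the mean dropped by 4.64 kb (SD 3.06).

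**Figure D5:**
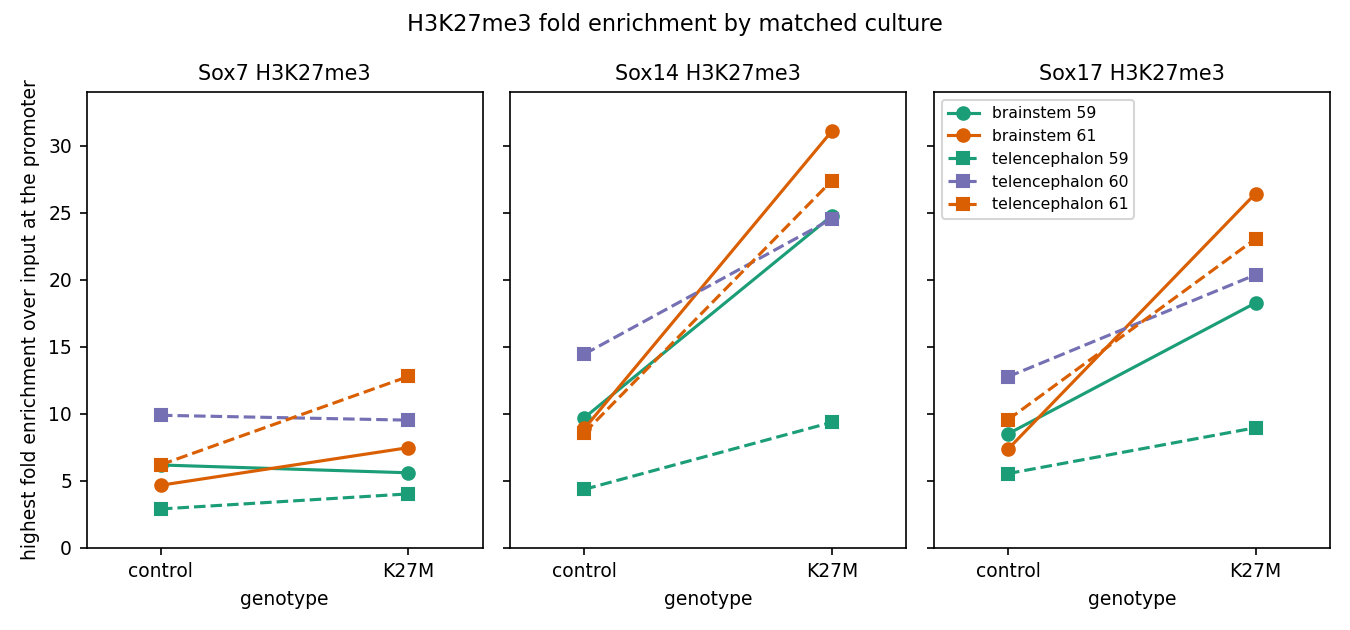
Highest H3K27me3 fold enrichment over input at the promoter in control and K27M, joined by matched culture, for Sox7, Sox14 and Sox17 (symbols as in the plot of Sox1 and Sox5). Sox14 and Sox17 go up in 5 of 5 pairs and reach 31.1 and 26.4, while Sox7 goes up in 3 and stays at 12.8 or lower.

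Of the 3 members with H3K27me3 in every library, 2 had a higher fold in K27M in 5 of 5 pairs and 0 a lower one, where 46.4% and 3.68% of 1820 such genes did. All 3 had a shorter longest peak in 5 of 5 pairs, against 43.8% of the 1820. By limma on the centred log2 folds with the pair as a block, the log2 difference was 0.94 (SE 0.10, adjusted p = 0.000162) at Sox14, 0.72 (SE 0.11, adjusted p = 0.000262) at Sox17 and 0.01 (SE 0.14, adjusted p = 0.977) at Sox7. It called 38.9% of the 1820 genes higher and 30.8% lower. Without centring, the median of all 1820 genes was 0.43 higher in K27M, and Sox14, Sox17 and Sox7 stood at 1.34, 1.12 and 0.40 (adjusted p = 2.03e-09, 3.2e-07 and 0.0972). In that run limma gave all 3 genes the same SE, 0.207. Its p-values thus do not rest on each gene's own spread between pairs. The genotype effect did not differ between tissues at an adjusted p of 0.05 for any of the 3 (limma interaction, adjusted p = 0.826 to 0.981). MACS2 folds are ratios to input within a library, not set against the Drosophila spike-in, and give no absolute amount of the mark.

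Markers of other cells were read beside these genes. Of 6 endothelial markers, Kdr had H3K4me3 in 10 of 10 libraries and Cldn5 in 5, and Pecam1, Cdh5, Tie1 and Tek had neither mark in any library. H3K27me3 was at Cldn5 in 10 of 10 and at Kdr in 9. The mean H3K4me3 coverage of the list was 7.54% to 14.7% in controls and 7.66% to 12.6% in K27M. Their part in the H3K4me3 at Sox7 was not tested. Of 6 endoderm markers, 4 to 5 had H3K27me3 in each library, as Sox17 did, and 1 to 5 had H3K4me3 in controls. The telencephalon controls 60 and 61, which alone had H3K4me3 at Sox14 and Sox17, also had the highest H3K4me3 peak folds, and the part of that difference in those peaks was not tested.

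Promoter states were then taken from peaks shared by at least 2 cultures of a group. In brainstem controls 2 of 10 members were bivalent (Sox1 and Sox7), against 9.28% of protein-coding genes, 6 had H3K4me3 only and 2 (Sox14 and Sox17) H3K27me3 only. In telencephalon controls 5 of 10 were bivalent (Sox1, Sox5, Sox7, Sox14 and Sox17), against 14.4%, and the other 5 had H3K4me3 only. In K27M cultures 1 member was bivalent in brainstem (Sox7), against 6.14% of protein-coding genes, and 2 in telencephalon (Sox1 and Sox7), against 6.91%. The share of bivalent genes was thus lower in K27M over all protein-coding genes too, and the K27M lists held fewer H3K27me3 peaks. The number in telencephalon controls rested on cultures 60 and 61: leaving out either one left 2 bivalent members, and asking for a peak in all 3 cultures left 1, Sox1. Shared peaks in a culture do not show both marks on the same allele or cell. For H3K27me3 coverage, telencephalon and brainstem controls overlapped at Sox1 and Sox5, the only members whose coverage differed between controls. The other members had either no peak or full coverage in every control, so the tissues could not separate there. Among 14107 genes with a peak in at least 1 control, telencephalon controls were all above the brainstem controls in 0.879% and all below in 2.45%.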

How the data were processed

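Peak lists for H3K4me3 and H3K27me3 were analysed for 20 libraries; inputs had no lists of their own here. According to the labels and methods, the authors trimmed reads with Trim Galore 0.6.7 and cutadapt 3.4, aligned them to mm10 with BWA 0.7.17-r1188, and called peaks per library against input with MACS2 2.2.7.1, never pooling replicates and calling H3K27me3 in broad mode (cutoff 0.1). The deposited columns are fold enrichment over input (a ratio), −log10 p-values and −log10 q-values, and a score within 1 of 10 times the −log10 q in all but 499 of 519288 peaks and not used here. Drosophila spike-in does not enter these values.

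Promoters came from GENCODE M21 (GRCm38); sequences came from RefSeq (GRCm38.p6), which matched 8 of 10 genes. No peak ran past a chromosome end. Scripts used Python 3.11.15, numpy 2.4.6, scipy 1.17.1 and limma 3.58.1, and were tested on simulated data. The 10 genes are all named, and they and the lists were chosen with earlier results of these data known. K27M was compared with control by an exact two-sided sign-flip test over 5 pairs (smallest p 0.0625). Its Benjamini-Hochberg adjustment ran over all genes with a peak of the mark in at least 1 library. Tissues were compared by exact permutation over 10 splits of control cultures (smallest p 0.1), without adjustment. Neither test can pass 0.05. Limma, peak lengths, distances to the nearest peak and the Sox5 window were added after seeing the data. States used peaks of at least 2 cultures with combined p at most 1e-10 (H3K4me3) or 1e-08 (H3K27me3) and single p at most 1e-06 or 1e-04.

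The pairing comes from the culture numbers in the labels and from the methods, which match cultures between genotypes. Deviations from group means of same-numbered control and K27M libraries correlated across genes with r from -0.207 to 0.632. P-values measure the spread between pooled cultures, except those of limma without centring, which had the same SE at every member tested for a mark. No 2 libraries of a mark shared an identical peak.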

Additional observations from a re-analysis of the deposited data

How the results depend on the processing

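Raising the peak threshold (−log10 q or fold of at least 3), narrowing the window, or leaving out cultures kept the state of Sox2, Sox4, Sox6, Sox11 and Sox21 in controls at H3K4me3 only. Shares of all genes given below are over genes with a peak of the mark in at least 1 library used. The number of members with H3K27me3 coverage lower in every pair was 0, and 0 to 2 when 1 culture number was left out (2 without culture 61, where 15.9% of all genes were lower, against 10.5% with all cultures). Those higher in every pair numbered 0, or 2 by highest fold. By highest fold, 46.4% of genes with an H3K27me3 peak in 10 of 10 libraries were higher in every pair. The number with H3K4me3 coverage higher in every pair was 2, and 2 to 5 when 1 culture number was left out (5 without culture 61, where 33.6% of all genes were higher, against 5.23%), 0 by highest fold. Without the replicate block, asking every K27M library to exceed every control of its tissue, that number was 0. Permuting genotypes within tissues was run on the members only, without adjustment. For H3K4me3 coverage its lowest exact permutation p was 0.05, at Sox1 and Sox5 (smallest possible 0.0167), then 0.0833 at Sox4 and Sox21. For H3K27me3 coverage the lowest was 0.0667, at Sox5. Limma's calls of Sox14 and Sox17 stood with and without the block. Members whose control tissues did not overlap in H3K27me3 numbered 0 (3.32% of all genes), and 0 to 2 with 1 culture number left out (2 without culture 59, where 55.6% of all genes did not overlap). With the main settings only Sox1 and Sox5 differed between controls at all. In H3K4me3 they numbered 1 (16.7% of all genes), and 0 with 1000 bp on either side, by highest fold or in K27M cultures, 2 to 7 with 1 culture number left out (7 without culture 59, where 75.8% of all genes did not overlap), and 6 without telencephalon culture 59 alone (56.5% of all genes). Bivalent members in telencephalon controls numbered 5, 1 with a peak required in every culture, and 2 to 5 with 1 culture left out; in brainstem 2, and 1 with either stricter threshold, where Sox1 lost H3K27me3. Without culture 59 or 61 brainstem has 1 control, and no shared peaks could be formed. For Sox7, the H3K27me3 coverage difference turned to 19.2 points with a fold of at least 3, and that of H3K4me3 ran from -9.76 to 0.411 with 1 culture number left out (0.411 without culture 61). The calls for Sox14 and Sox17 by limma held with every alternative run, of which the one without centring did not use each gene's own spread. Causes were not tested. Peak lists without read counts limit every absence.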

Other observations

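The rest of the Sox family was read the same way. Of its 9 annotated members, Sox3, Sox8, Sox9, Sox10, Sox12 and Sox13 had H3K4me3 in 10 of 10 libraries, among them the SoxE genes Sox8, Sox9 and Sox10 of the glial lineage. H3K27me3 was in 10 of 10 at Sox18 alone, the last SoxF gene, which had H3K4me3 in 8 of 10 against 9 of 10 at Sox7 and 2 of 10 at Sox17. Sox9 had H3K27me3 in 1 of 10 and Sox30 in 4 of 10, and Sox15 had H3K4me3 in 2 of 10 and H3K27me3 in 0.

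The protein-coding genes whose promoter coverage was most like that of Sox1, by mean absolute difference over the 20 libraries of both marks, were Hs3st3b1 (11.4 points), Ccsap (11.9) and Paqr9 (12.1). For Sox5 they were Cd302 (4.32 points), Tacr3 (4.85) and Gbp3 (5.26). Points in these comparisons share libraries and their peak numbers, and no p is given.

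Of 5 neuronal markers, 4 to 5 had H3K4me3 in each control and 5 in each K27M library. H3K27me3 was in 10 of 10 at Rbfox3 and Stmn2, as at Sox14, but in 1 at Tubb3, 2 at Snap25 and 4 at Syt1. H3K4me3 was in 10 of 10 at Rbfox3 and 9 of 10 at Stmn2, against 2 of 10 at Sox14. Of 5 microglial markers, 0 to 1 had H3K4me3 in each library, P2ry12 being the one with a peak in 8 of 10. Of 5 astrocyte markers, 2 to 5 had H3K4me3, with Slc1a3 and Gja1 in 10 of 10.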
